A study of Mus musculus with 4 samples.

Results

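Granzymes and perforin are the proteins with which cytotoxic lymphocytes kill, and the transcripts of 9 such genes were followed here: Gzma, Gzmb, Gzmc, Gzmd, Gzme, Gzmf, Gzmk, Gzmm and Prf1. They were chosen by gene symbol from the 27998 genes of the deposited count matrices, with earlier results of these data known. The cells were UTCαβ, unconventional αβ T cells lacking both coreceptors, sorted as CD45+ TCRβ+ TCRγδ- CD4- CD8- cells from sarcomas that a single subcutaneous dose of the carcinogen 3-methylcholanthrene had induced in male C57BL/6J mice. The study compared 2 Csf3r+/+ with 2 Csf3r-/- sarcomas; the latter mice lack the G-CSF receptor in all cells from birth and have few neutrophils, so the deficiency was not limited to neutrophils or to the tumor. Each sarcoma gave 1 droplet library of 3′ transcript ends, in which each captured molecule is counted as 1 unique molecular identifier (UMI). The number at the end of a barcode separates both libraries of a genotype, but nothing ties it to an animal, and the libraries are called 1 and 2 for that number alone.

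Perforin, the product of Prf1, makes pores in the membrane of a target cell, and granzymes are serine proteases that pass through them and cleave proteins inside. Both wait in secretory granules, where granzymes are bound to the proteoglycan serglycin and trimmed to their active form by cathepsin C, until the granules fuse with the plasma membrane. Granzyme B cuts after aspartate and starts apoptosis, granzymes A and K are tryptases, granzyme M cuts after methionine or leucine, and granzymes C to F are rodent relatives of granzyme B. These genes are best known from CD8 T cells and NK cells, and innate-like T cells can also transcribe them.

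The members were read in barcodes with at least 1 UMI of Cd3e, a chain of the T cell receptor complex, a minimum of 200 genes, and no more than 20000 UMIs or 10% of them mitochondrial. This rule kept 21342 of 32525 barcodes, between 2843 and 6826 per library, with 9827411 to 23753033 UMIs per library and a median of 1983 to 3055 UMIs per cell. The Csf3r-/- libraries were the shallower ones (medians 2239 and 1983 against 3055 and 3026). Any pair of libraries shared 20 to 56 barcodes of kept cells, 0.703% to 1.02% of the smaller library. The targeted gene, Csf3r, had 1 and 3 UMIs in the kept Csf3r+/+ cells and 2 and 1 in the Csf3r-/- cells, which is too few in this T cell sort to check the genotype. Summed macrophage markers, for which all 8 genes had UMIs in every library, ranged from 24 and 311 UMIs per 1000000 (CPM) in the Csf3r+/+ libraries to 128 and 1526 in the Csf3r-/- libraries. The 2 CD8 markers came to 7.79 to 32.1 CPM, Cd4 to 0.611 to 4.62 CPM, and the 6 NK markers, also found in innate-like T cells, to 1587 and 1946 CPM in Csf3r+/+ and 749 and 874 in Csf3r-/- cells.

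The members sit at 4 places in the mouse genome (GRCm38). Gzmb (ENSMUSG00000015437, chr14:56258838-56262260), Gzmc (ENSMUSG00000079186, chr14:56231441-56234656), Gzmf (ENSMUSG00000015441, chr14:56205263-56211417), Gzmd (ENSMUSG00000059256, chr14:56129556-56132608) and Gzme (ENSMUSG00000022156, chr14:56117626-56120625) lie on the minus strand in a cluster of 7 granzyme genes that spans 145 kb. Gzma (ENSMUSG00000023132, chr13:113093825-113100981) and Gzmk (ENSMUSG00000042385, chr13:113171608-113225908) are neighbours on the minus strand of chromosome 13. Prf1 (ENSMUSG00000037202, chr10:61297833-61304680) and Gzmm (ENSMUSG00000054206, chr10:79689020-79695261) are on the plus strand of chromosome 10, far from each other. All 9 are protein-coding.

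The promoters of the chromosome 14 members are shown because these neighbours, which resemble each other in sequence, differed by orders of magnitude in UMIs. All 9 members had an entry of 300 bases, from 250 before to 50 after the gene start, in the RefSeq promoters (GRCm38.p6). Each line gives a stretch of it on the minus strand. Capitals mark the RUNX motif TGTGGT, the AP-1 motif TGANTCA and 8 bases that match a cyclic AMP response element, TGACGTCA, in full or with 1 base changed. In Gzmc, Gzmd, Gzme and Gzmf these 8 bases begin at -57 to -82 from the RefSeq start of the entry and align with each other. In Gzmb they begin at 2 from the RefSeq start of its entry. The gene place given above for Gzmb has another start, 56262260, and the whole printed stretch lies before it. Where the 8 bases of Gzmb lie relative to the start thus depends on the annotation.
Gzmb, chr14:56262315-56262402: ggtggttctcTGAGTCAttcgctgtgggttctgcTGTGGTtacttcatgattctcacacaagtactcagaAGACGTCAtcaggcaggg
Gzmc, chr14:56234683-56234776: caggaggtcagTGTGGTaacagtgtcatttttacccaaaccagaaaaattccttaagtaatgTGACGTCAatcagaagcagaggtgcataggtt
Gzmf, chr14:56211458-56211551: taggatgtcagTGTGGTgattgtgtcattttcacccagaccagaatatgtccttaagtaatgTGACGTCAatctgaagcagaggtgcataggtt
Gzmd, chr14:56132623-56132716: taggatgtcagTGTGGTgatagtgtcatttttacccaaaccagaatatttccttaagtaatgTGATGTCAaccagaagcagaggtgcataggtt
Gzme, chr14:56120656-56120749: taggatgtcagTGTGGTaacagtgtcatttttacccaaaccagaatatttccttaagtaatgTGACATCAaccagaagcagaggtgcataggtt
The stretches of Gzmc, Gzmd, Gzme and Gzmf are the same at 88.3% to 95.7% of their 94 bases. Gzmc and Gzmf hold the full element, while Gzmb has the change T1A, Gzmd C4T and Gzme G5A, counted from the first of the 8 bases and with the base of the full element first. Searched on both strands, the full element was in 1.79% of 32851 mouse promoters of the same length, a form with at most 1 base changed in 12.5%, TGANTCA in 7.81% and TGTGGT in 16.8%. Outside chromosome 14, TGTGGT was found in the promoters of Gzma, Prf1 and Gzmm (1 of its 2 entries) and not in that of Gzmk, and none of these 4 held TGACGTCA or TGANTCA. These are matches of letters and do not show binding.

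Gzmb made up most of the granzyme and perforin transcripts. All members together had 12670 and 24023 UMIs in Csf3r+/+ libraries 1 and 2, and 4669 and 7055 in Csf3r-/- libraries 1 and 2. This was 0.129% and 0.101% of all UMIs in Csf3r+/+ cells and 0.0330% and 0.0434% in Csf3r-/- cells. Gzmb gave 80.1%, 89.3%, 86.4% and 82.1% of these, in that order of libraries, and Gzmc 12.9%, 4.75%, 3.64% and 8.87%. UMIs of 3′ ends do not grow with the length of a transcript, but capture can differ between genes, so these shares describe UMIs rather than molecules in the cell.

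The level of Gzmb was 1032 and 903 CPM in the Csf3r+/+ libraries and 285 and 357 CPM in the Csf3r-/- libraries, without overlap. Its means were 968 ± 91.1 and 321 ± 51.0 CPM (SD, n = 2 each), a ratio of 3.02. Gzmc, the neighbour of Gzmb, had 166 and 48.0 CPM in Csf3r+/+ and 12 and 38.5 CPM in Csf3r-/- libraries. The genotypes did not overlap for Gzmc either, but Csf3r+/+ library 2 lay closer to Csf3r-/- library 2 than to its own partner. With 2 libraries per genotype, a share of 0.333 of all assignments of libraries to genotypes gives no overlap. Gzma had 34 and 38.1 CPM against 14.6 and 23.6 CPM. Prf1 was low everywhere, at 8.85 and 9.39 CPM against 6.14 and 5.79 CPM. Gzmk had 39.8 CPM in Csf3r+/+ library 1 and 5.47, 6.56 and 6.90 CPM in the other libraries, so its higher mean in Csf3r+/+ came from 1 library. Gzmm had 5.19 and 6.23 CPM against 5.58 and 2.77 CPM, and its genotypes overlapped.

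**Figure D1:**
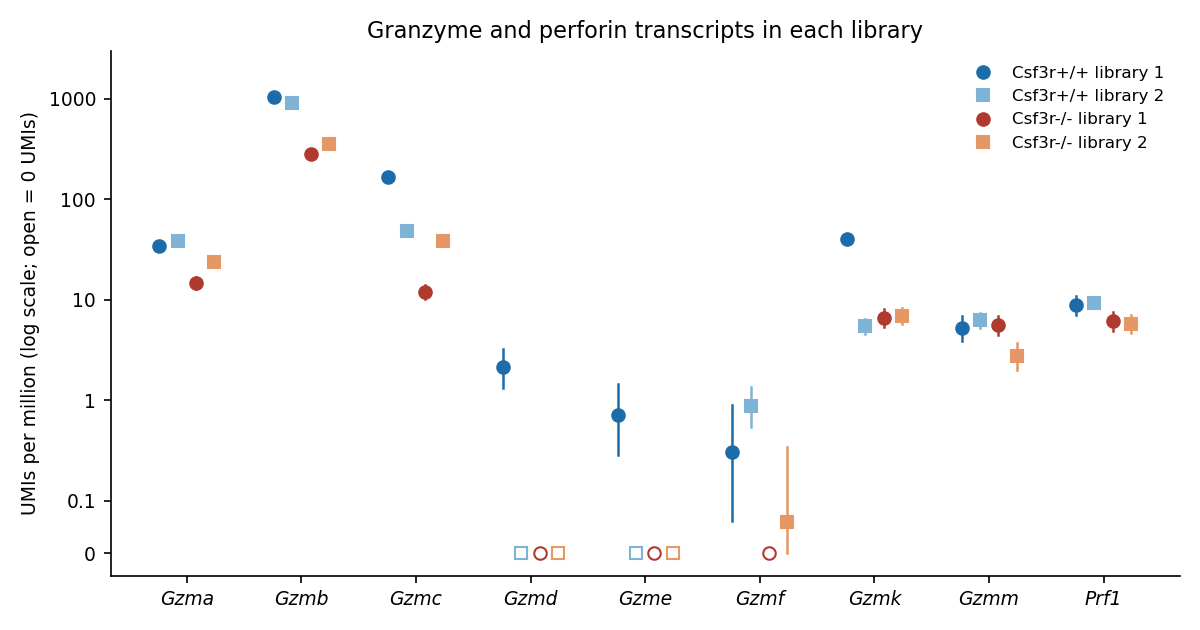
Levels of the 9 members in CPM (log scale) in each of the 4 libraries, with exact 95% Poisson intervals, which cover counting error only; open symbols stand for 0 UMIs. Both Csf3r+/+ libraries lie above both Csf3r-/- libraries for Gzmb (1032 and 903 against 285 and 357 CPM), while for Gzmk Csf3r+/+ library 1 stands apart at 39.8 CPM.

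Gzmd, Gzme and Gzmf were nearly absent from the kept cells. Gzmd had 21 UMIs in 6 cells and Gzme 7 UMIs in 4 cells, all in Csf3r+/+ library 1, and Gzmf had 3, 21, 0 and 1 UMIs. For these genes a count of 0 in a library allows a share of 0.0475% to 0.0642% of cells with a UMI (3 counts over the thinned cells, counting error only). In the last 300 bases of their transcripts 31.9%, 38.5% and 26.3% of all 31-base words also occur in other genes of the cluster. The counts of the 3 genes and their split are therefore uncertain, and whether UMIs were missed was not tested. For Gzmb, Gzmc, Gzma, Gzmk and Gzmm no such word was shared, and for Prf1 1.85% were. Gzmg and Gzmn, the cluster's other granzymes, share 39.3% and 30.4% of such words and had no UMI, with the same uncertainty. No UMI was found for 6 of the 8 mast cell and neutrophil proteases listed with them. Cma1, a mast cell chymase, had 10 UMIs in all and Mcpt4 had 1.

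Whether the granzyme genes differ with Csf3r was tested on UMI counts summed per library, since cells of 1 library are not replicates. With edgeR's quasi-likelihood test and Benjamini-Hochberg adjustment, 0 of the 6 members that passed the filter on low counts were called, and so were 0 of 11491 genes (0%), of which 1663 had an unadjusted p under 0.05. Gzmb came nearest, with a log2 fold change of -1.68 (SE 0.23, adjusted p = 0.080) in Csf3r-/- against Csf3r+/+ cells. The other members that passed were Gzmc at -2.11 (SE 0.79, adjusted p = 0.34), Gzma at -1.01 (SE 0.32, adjusted p = 0.27), Prf1 at -0.72 (SE 0.24, adjusted p = 0.29), Gzmk at -1.77 (SE 0.87, adjusted p = 0.45) and Gzmm at -0.58 (SE 0.42, adjusted p = 0.60). All 6 had lower fitted levels in Csf3r-/- cells, where 49.7% of all genes tested were lower, though the sign for Gzmk turned to 0.12 without Csf3r+/+ library 1. Members share cells, so these signs are not independent of each other. DESeq2 called 626 of 11268 genes (5.56%), among them Gzmb (adjusted p = 2.8e-07) and Gzmc (adjusted p = 0.044), so the calls rest on the tool. For Gzmb they also rested on single settings of edgeR, with an adjusted p of 0.021 without the filter on low counts, 0.033 with the library number as a block, 0.038 without Csf3r+/+ library 1 and 0.065 to 0.56 in its other alternatives, and the log2 fold change stayed between -1.91 and -1.50. Where a library is left out of a comparison between genotypes, the lone library of its genotype is assumed to vary like the other genotype. This holds here and in every such value. In comparisons of cells within libraries, leaving out a library removes both of its groups of cells. Macrophage genes differed between libraries. Without the cells that had a CD4 or CD8 UMI or at least 3 UMIs of other lineages, Gzmb stood at -1.66 (adjusted p = 0.071, edgeR). Cells with fewer UMIs of other lineages, macrophage genes among them, stayed in. An exact two-sided permutation test of 2 against 2 libraries cannot go below 0.333, the value it gave for the CPM of Gzma, Gzmb, Gzmc, Gzmf and Prf1. Any gap without overlap gives this value. The share of such gaps over all genes was not counted, so this list shows nothing particular to the members. For Gzmf the gap rests on 24 UMIs in Csf3r+/+ and 1 in Csf3r-/- cells. The permutation test gave 1 for Gzmk, Gzmd and Gzme and 0.667 for Gzmm.

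The share of cells in which Gzmb was found also differed between genotypes without overlap. At an equal depth of 1500 UMIs per cell, which 19624 cells reached, a Gzmb UMI was found in 34.5% and 40.4% of Csf3r+/+ cells and in 13.9% and 18.0% of Csf3r-/- cells. The means of 37.4% ± 4.21 and 15.9% ± 2.91 (SD, n = 2 each) were 21.5 percentage points apart, with an exact two-sided permutation p of 0.333. Without thinning, the shares were 41.3%, 51.9%, 17.2% and 21.2%. Other barcodes had no T cell marker UMI and at least 3 UMIs of macrophage, B cell or fibroblast genes. Gzmb was found in 10 of 175 of them (5.71%), and in 5 of 154 (3.25%) without Csf3r+/+ library 1. All 254 such barcodes had a median of 2204 UMIs before thinning. The T cell markers here were Cd3e, Cd3d and Cd3g, so lymphocytes without a UMI of these may be among them. In Csf3r+/+ library 1, 26 such barcodes held 194 Gzmb UMIs (1534 CPM). Shares in these barcodes are thus no clean background for any member.

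The other members were found in few cells, and for 3 of them the reading against those barcodes turned on the barcodes of Csf3r+/+ library 1. Gzmc had a UMI in 4.78%, 3.78%, 1.22% and 2.03% of cells in the same order of libraries, against 4% (7 of 175) in the barcodes without T cell markers. Gzma had one in 1.40%, 3.13%, 0.770% and 1.40%, against 1.71%. Prf1 had one in 0.899%, 1.5%, 0.941% and 0.820%, against 1.14%. For each of these 3 genes at least 1 library lay above and at least 1 below that share. Without the barcodes of Csf3r+/+ library 1 it was 3 of 154 (1.95%) for Gzmc, 1 of 154 (0.649%) for Gzma and 0 of 154 for Prf1, which allows up to 1.95%. Gzmc in Csf3r-/- library 1 still lay below it, and Prf1 lay within that limit in every library. Gzmk was found in 3.17% of Csf3r+/+ library 1 and in 0.491%, 0.492% and 0.649% of the other libraries, and Gzmm in 0.468%, 0.855%, 0.706% and 0.342%. Neither was found in the 175 barcodes, which allows a share of up to 1.71%, so for Gzmk only Csf3r+/+ library 1 lay above that limit.

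**Figure D2:**
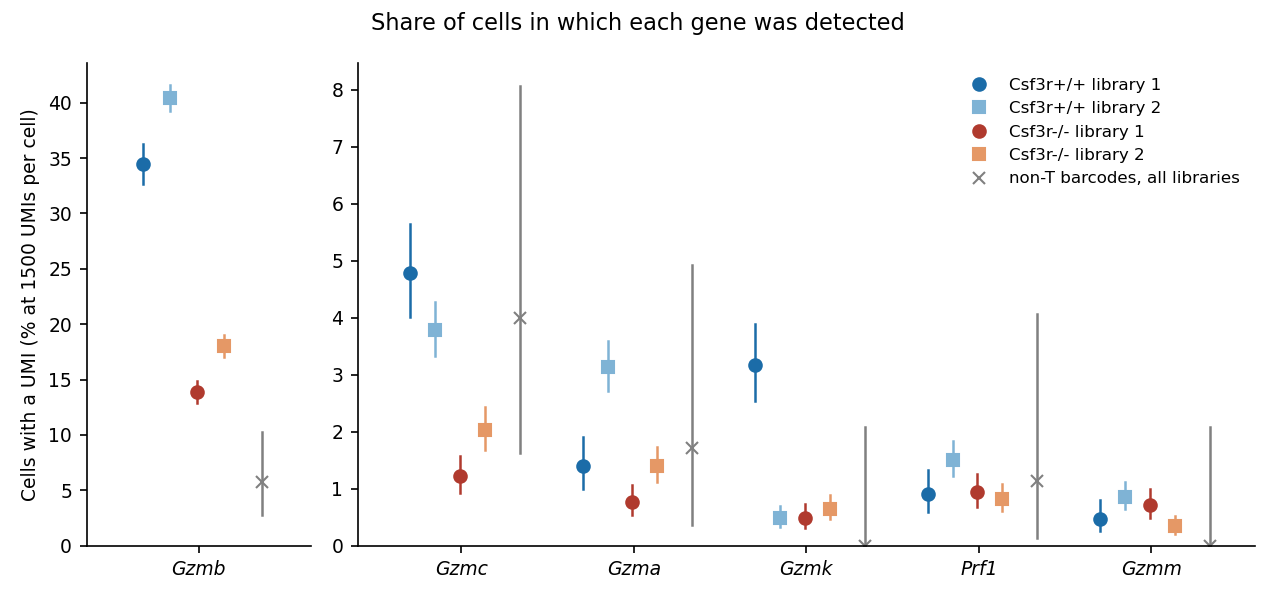
Share of cells (percent) with a UMI of each of 6 members, every cell thinned to 1500 UMIs, for the 4 libraries and for 175 barcodes without T cell marker UMIs (crosses), with exact Clopper-Pearson 95% intervals of counting error. Gzmb, on its own axis, was found in 34.5% and 40.4% of Csf3r+/+ and 13.9% and 18.0% of Csf3r-/- cells, and the crosses lie among the shares of Gzmc, Gzma and Prf1 at 4%, 1.71% and 1.14%, or 1.95%, 0.649% and 0% without Csf3r+/+ library 1.

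Transcripts were unevenly spread over cells. The tenth of cells with the most Gzmb held 63.2% and 58.6% of its UMIs in Csf3r+/+ and 89.5% and 85.0% in Csf3r-/- libraries. The highest cell had 146 and 106 Gzmb UMIs in Csf3r+/+ and 38 and 54 in Csf3r-/- libraries. Gzmc was more uneven still, with 58.2% to 81.6% of its UMIs in 1% of the cells and up to 319 UMIs in 1 cell of Csf3r+/+ library 1. A summed level of Gzmc can thus rest on few cells.

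Levels were next compared between groups of cells split by genes other than the members. The paper had already reported Gzmb with Klra genes in some clusters of these cells, and Il17a with Tmem176b in others. The tests between these groups are therefore not independent of earlier results from the same cells. Ly49 cells had a UMI of any of 9 Klra genes, which encode the Ly49 receptors for MHC class I, and none of the type 3 genes. Type 3 cells had a UMI of any of 4 genes, among them Il17a, which encodes the cytokine IL-17A, and Tmem176b, and none of the Klra genes. Both groups are ranges of detection and not cell types, and a cell can miss a group for want of depth. There were 826, 3225, 476 and 400 Ly49 cells (29.1%, 49.9%, 9.13% and 5.86% of each library) and 1422, 849, 3959 and 5233 type 3 cells (50.0%, 13.1%, 75.9% and 76.7%), while 3354 cells had UMIs of both kinds and 1598 of neither.

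All 6 members tested were higher in Ly49 cells than in type 3 cells, although Csf3r+/+ library 2 did not share the difference for Gzmb. Gzmb had 1728, 764, 919 and 1103 CPM in Ly49 cells of the 4 libraries and 141, 875, 95.6 and 154 CPM in type 3 cells. In Csf3r+/+ library 2 type 3 cells thus held slightly more Gzmb than Ly49 cells, and with gates of at least 2 UMIs the values there were 742 and 743 CPM. The log2 fold change was 2.69 (SE 0.62, adjusted p = 0.017, edgeR's quasi-likelihood test with the library as a block), and 23.7% of 9493 genes were called, 12.7% in this direction. The call for Gzmb was lost when any 1 of the other 3 libraries was left out (adjusted p = 0.068 without Csf3r+/+ library 1, 0.089 without Csf3r-/- library 1 and 0.094 without Csf3r-/- library 2). The shares of cells with Gzmb at 1500 UMIs were 59.5%, 37.0%, 40.6% and 45.9% of Ly49 cells and 8.5%, 32.6%, 6.64% and 11.1% of type 3 cells.

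Gzmk, the tryptase found in few cells, had 54.1, 6.12, 21.1 and 28.3 CPM in Ly49 cells and 2.79, 3.20, 1.52 and 2.86 CPM in type 3 cells, a log2 fold change of 3.63 (SE 0.41, adjusted p = 0.00095, edgeR). Gzma had 60.5, 42.6, 56.0 and 138 CPM against 1.39, 23.3, 2.13 and 5.03 CPM, a log2 fold change of 3.91 (SE 0.67, adjusted p = 0.0052). Gzmm had 11.8, 7.66, 24.7 and 5.30 CPM against 0.232, 3.20, 1.01 and 1.13 CPM, at 3.54 (SE 0.60, adjusted p = 0.0050). Its levels in type 3 cells rest on 1, 7, 10 and 13 UMIs, and in Ly49 cells of Csf3r-/- library 2 on 6. Gzmk, Gzma and Gzmm were higher in Ly49 cells of every library, with the narrowest gap in Csf3r+/+ library 2. Gzmc had 286, 38.3, 47.3 and 129 CPM against 37.7, 32.5, 2.43 and 6.42 CPM, at 3.05 (SE 0.63, adjusted p = 0.011). Its call was lost without Csf3r-/- library 1 (adjusted p = 0.050) or Csf3r-/- library 2 (adjusted p = 0.058). Prf1 showed the smallest of these differences, with 13.1, 10.2, 16.0 and 9.71 CPM against 2.09, 5.49, 4.46 and 4.77 CPM, at 1.78 (SE 0.31, adjusted p = 0.0056). Whether the difference itself depended on genotype was tested by an interaction term, which called 3 genes and no member (Gzmc, 2.61 larger in Csf3r-/- on the log2 scale, unadjusted p = 0.013, adjusted p = 0.43).

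**Figure D3:**
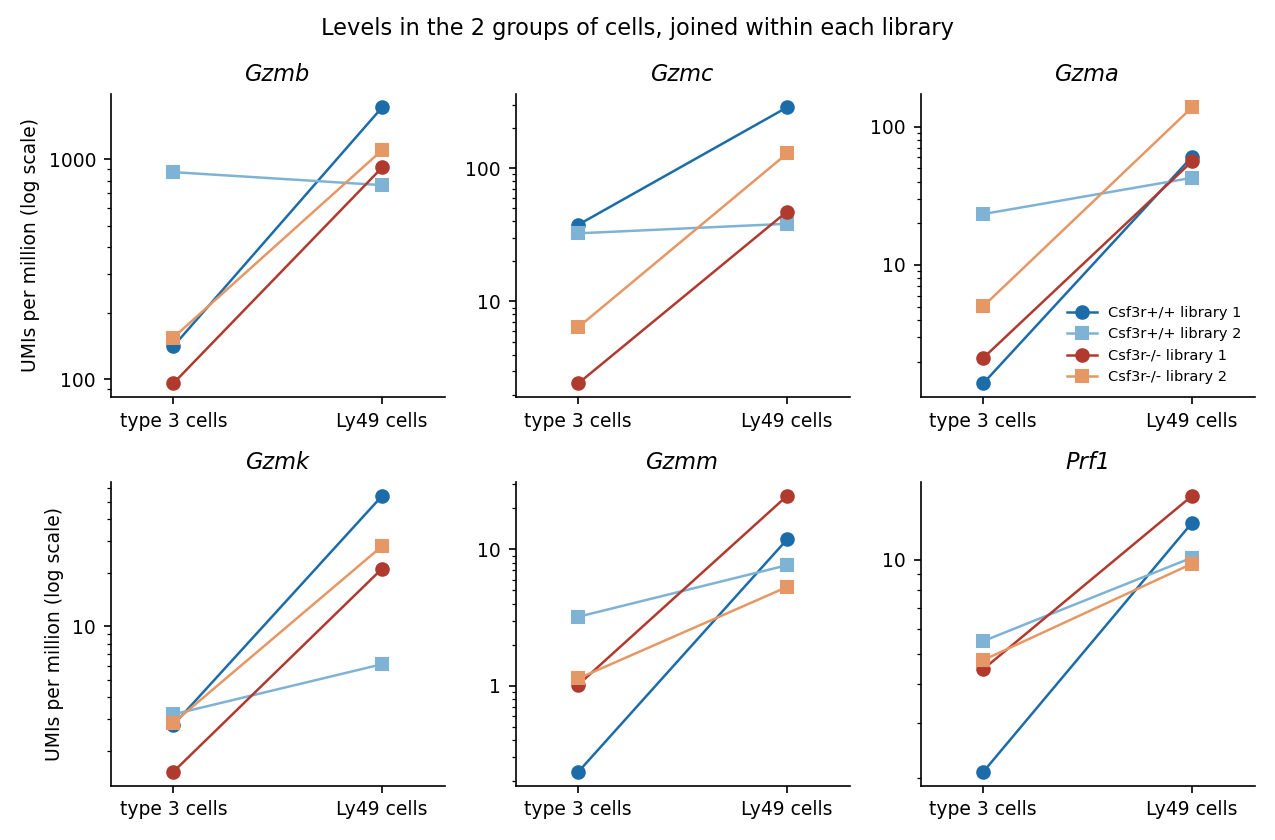
Levels of 6 members in CPM (log scale) in type 3 cells and Ly49 cells, with a line for each of the 4 libraries. The lines rise for all 6 genes except Gzmb in Csf3r+/+ library 2 (875 CPM in type 3 cells and 764 in Ly49 cells).

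Cells with neither kind of gene held granzymes too. Gzmk had 220, 17.8, 35.1 and 26.0 CPM there, above the Ly49 cells of 3 libraries and slightly below them in Csf3r-/- library 2. Gzmb had 2005, 911, 653 and 1187 CPM in these cells.

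The genes that handle or accompany granzymes were compared between Ly49 and type 3 cells in the same fit. Of 10 death ligands and other effectors, 7 were higher and 1 lower in Ly49 cells, with a median log2 fold change of 2.52 against 0.0047 over all genes. Xcl1, a chemokine for cross-presenting dendritic cells, rose by 4.39 (SE 0.67), Ccl5 by 3.58, Ifng by 2.47 and Fasl, the ligand of the death receptor Fas, by 2.58, while Lta, which encodes lymphotoxin, fell by 1.40. Of 11 processing and packing genes 3 rose and 2 fell, where 12.7% of all genes rose and 11.1% fell. Nkg7, a granule membrane protein, rose by 2.72 and Cst7, an inhibitor of cathepsins, by 1.18, whereas Srgn (serglycin) and Ctsc (cathepsin C) did not pass (-0.24 and 0.098). Of 12 exocytosis genes 2 rose and 3 fell, among the latter Rab27a, which docks granules, at -0.54.

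All 4 serpins tested changed, in opposite directions. Serpinb9, the inhibitor of granzyme B that protects killer cells from it, rose by 2.01 (SE 0.41) and Serpinb6b by 1.95 (SE 0.31), while Serpinb6a fell by 1.91 (SE 0.22) and Serpinb1a by 5.07 (SE 0.44). Of 12 regulators 4 rose and 1 fell. Eomes and Tbx21, the T-box factors of cytotoxic cells, rose by 4.06 and 2.71, and Stat4 by 1.03. Of 9 cytokine receptors 4 rose and 3 fell, with Il12rb2 at 2.73, Il21r at 1.94 and Il2rb at 1.68 against Il2ra at -2.16, Il12rb1 at -1.63 and Il18r1 at -1.33. Eomes is also on the list of NK markers, and these lists were chosen with results of these cells known.

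Within Ly49 cells and within type 3 cells the genotype differences of the members did not pass edgeR's test. Cells with both kinds of genes or with neither were not tested. Among Ly49 cells, 63 of 8455 genes were called (0.745%), all lower in Csf3r-/-, and no member was. Gzmb differed by -0.25 (SE 0.35) and Gzma by 0.96 (SE 0.42, adjusted p = 0.85, edgeR), and the other 4 by -0.79 (Gzmc) to 0.70 (Gzmm). These values rested on single libraries. With 1 library left in a genotype the other genotype alone gives the spread, so the p-values that follow are no firm calls. Without Csf3r+/+ library 1 Gzmb stood at 0.37, Gzmc at 1.17 and Gzmk at 1.96, with Gzma called at 1.15 (adjusted p = 0.0013). Without Csf3r+/+ library 2 Gzmc was called at -1.62 (adjusted p = 2.6e-08) and Gzmk at -1.07 (adjusted p = 0.012). Among type 3 cells 0 of 10443 genes were called by edgeR (0%, with 1065 at an unadjusted p under 0.05) and 270 by DESeq2. Gzmc stood at -3.01 (SE 0.50, adjusted p = 0.14 by edgeR and 2.1e-05 by DESeq2) and Gzmb at -2.11 (SE 0.91, adjusted p = 0.54 by edgeR).

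The makeup of the libraries moved with genotype, since Ly49 cells were a smaller part of both Csf3r-/- libraries. When the 4 groups of cells (Ly49, type 3, both and neither) were given the same weights in every library, by their share of all UMIs, Gzmb had 946 and 907 CPM in Csf3r+/+ and 443 and 572 CPM in Csf3r-/- libraries. The ratio of the means was then 1.83 instead of 3.02, and the genotypes still did not overlap. Within Ly49 cells, however, Gzmb did overlap (1728 and 764 CPM against 919 and 1103 CPM). It also overlapped within type 3 cells (141 and 875 CPM against 95.6 and 154 CPM), which held 48.4% of the weight. In cells with neither kind of gene Gzmb overlapped too (2005 and 911 CPM against 653 and 1187 CPM). In cells with both kinds, which held 19.6% of the weight, it did not overlap (1565 and 1166 CPM against 615 and 706 CPM). The difference in cells with both kinds was not tested. Gzma, at 29.8 and 31.4 CPM against 25 and 48.4 CPM, and Prf1, at 8.21 and 7.66 CPM against 8.07 and 6.68 CPM, overlapped after weighting. Gzmc had 164 and 42.6 CPM against 20.4 and 62.7 CPM and overlapped as well. So did Gzmk, at 32.2 and 4.42 CPM against 10.6 and 12.4 CPM, and Gzmm, at 4.21 and 4.81 CPM against 9.86 and 3.83 CPM. These weighted values are a description without a test.

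Among the pathway genes 59 of 70 could be tested between genotypes, and edgeR called 0. DESeq2 called 11 of them (18.6%, against 5.56% of all genes), of which 6 were lower in Csf3r-/- (Nkg7, Ifng, Ccl3, Ccl5, Xcl1 and Tbx21) and 5 higher (Sytl1, Prdm1, Zeb2, Il2ra and Il18r1). Xcl1 had 1059 and 1470 CPM in Csf3r+/+ and 268 and 302 CPM in Csf3r-/- libraries, a log2 fold change of -2.26 (adjusted p = 0.079 by edgeR). Zeb2, a repressor that acts with T-bet in terminal effector cells, went the other way, with 11.4 and 14.6 CPM against 62.8 and 105 CPM. The median log2 fold change of the death ligands and other effectors was -1.31, while the medians of the other lists lay between -0.32 and 0.12 and that of all genes at 0.0047.

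Which members share cells was read from cells thinned to 1500 UMIs, as an odds ratio per library and over the 4 libraries by the Mantel-Haenszel method. These ratios describe cells that share a library, and carry no test. At this depth 70.7% of the 19624 cells had no member UMI and 22.5% had Gzmb alone. Of the 5744 cells with a member, 90.8% had Gzmb. There were 8 patterns of a single member and 29 patterns of several. The most frequent ones after Gzmb alone were Gzmb with Gzmc (345 cells), Gzma with Gzmb (192 cells) and Gzmc alone (163 cells). Only 70 cells had 3 or more members, and the highest number in a cell was 5. A share of 7.73% and 6.03% of Csf3r+/+ cells and 1.82% and 2.32% of Csf3r-/- cells had at least 2 members.

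Gzmb and Gzmc, neighbours on chromosome 14, were found together in 380 cells where 172 would be expected if they were independent within libraries, an odds ratio of 5.83 (4.69 to 10.4 over the libraries). Of the cells with Gzmc, 75.2%, 77.8%, 61.4% and 49.6% also had Gzmb. Gzma and Gzmk, neighbours on chromosome 13, shared 27 cells against 2.9 expected, an odds ratio of 12.5 (6.22 to 54.4). Pairs from different chromosomes also shared cells, Gzma with Gzmb at 4.96 (3.36 to 12.8) and Gzmb with Gzmk at 6.13, where Csf3r+/+ library 2 had 1.22 and Csf3r+/+ library 1 had 18.1. Of the cells with Gzmk, 89.8% had Gzmb in Csf3r+/+ library 1 and 45.2%, 60.9% and 50.0% in the other libraries.

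Gzmc and Gzmk went the other way and were found together in 1 cell against 6.4 expected, an odds ratio of 0.145. That cell was in Csf3r+/+ library 1, and the other libraries had none where 1.17, 0.280 and 0.773 were expected, too few to show a difference there. Without thinning the ratio was 0.341. Perforin was only loosely tied to granzyme B, with an odds ratio of 1.78 (1.36 to 4.10), and Gzmm not evenly, with 1.16 (0.80 to 2.34).

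Among Ly49 cells alone these 5 pairs lay on the same side of 1. Gzmb with Gzmc had an odds ratio of 4.37, Gzma with Gzmk 4.05, Gzmb with Gzmk 3.62, Gzma with Gzmb 3.36 and Gzmc with Gzmk 0.152. Gzmb with Gzmm stood at 0.460 there. Gzmb with Prf1 stood at 1.56, with both Csf3r-/- libraries below 1 (0.725 and 0.882). Among type 3 cells Gzmb with Gzmc had 3.93 and Gzma with Gzmb 5.73. No doublet caller was run, and the part of doublets in these pairs was not tested.

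**Figure D4:**
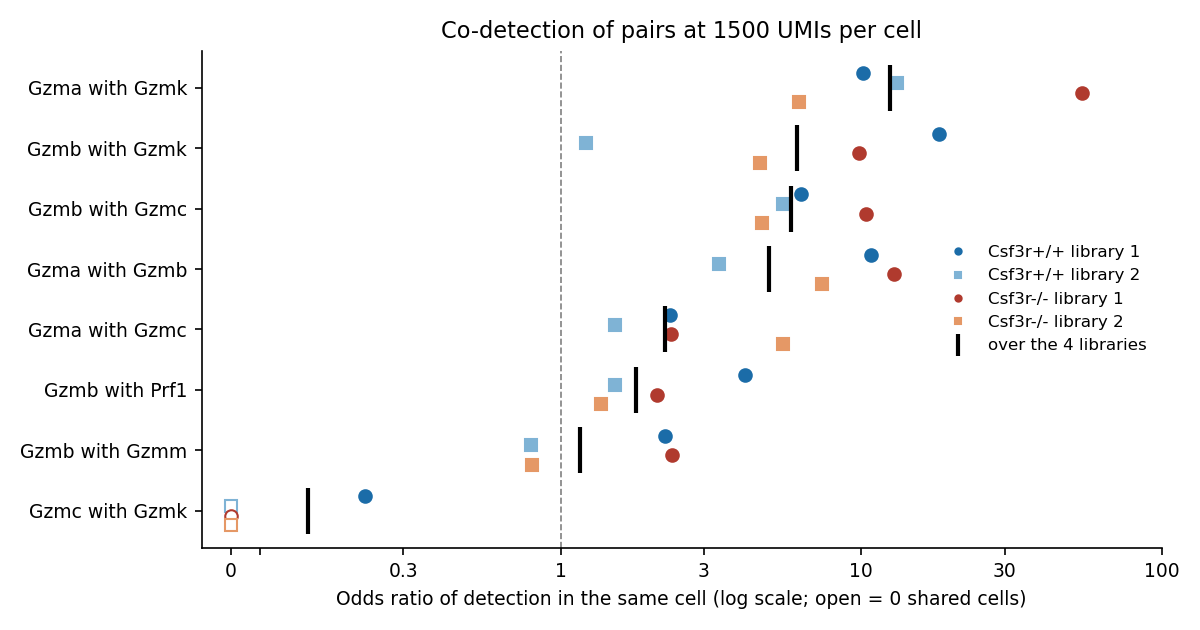
Odds ratio (log scale) that 2 members were found in the same cell, at 1500 UMIs per cell, in each of the 4 libraries (symbols) and over all of them (black bars); open symbols at the left edge stand for 0 shared cells. Gzma with Gzmk (12.5) and Gzmb with Gzmc (5.83) lie above 1 in every library, and Gzmc with Gzmk stands at 0.145, from 1 shared cell.

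What else marks granzyme B cells was asked by comparing summed counts of cells with and without a Gzmb UMI in the same library, after thinning, with the library as a block and Gzmb left out. There were 958, 2554, 649 and 1053 cells with Gzmb. edgeR's quasi-likelihood test called 488 of 9353 genes (5.22%), 325 higher (3.47%) and 163 lower (1.74%) in cells with Gzmb, and 3 of the 5 other members tested were among the higher ones. Gzmc rose 10.0-fold, from 22, 14.3, 3.81 and 14.2 CPM without Gzmb to 336, 88.5, 56.6 and 106 CPM with it (log2 fold change 3.32, SE 0.21, adjusted p = 0.00015). Gzma rose from 2.93, 16.5, 2.98 and 8.48 CPM to 71.9, 85.8, 72.0 and 68.5 CPM (3.31, SE 0.31, adjusted p = 0.0015). Both differed in all 4 libraries without overlap. Gzmk was called at 2.89 (SE 0.47, adjusted p = 0.011), but not when Csf3r-/- library 1 (adjusted p = 0.096) or 2 (adjusted p = 0.060) was left out, nor without thinning (adjusted p = 0.12). Prf1 had 0.94 (SE 0.27, adjusted p = 0.082) and Gzmm 0.66 (SE 0.38, adjusted p = 0.42).

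The genes that rose most with Gzmb were, after Gzmc and Gzma, Ifitm2 (3.11), the Ly49 gene Klra9 (3.11), Styk1 (3.0), Gzmk, Rab27b (2.84), a relative of the granule-docking Rab27a, Sulf2 (2.82), Entpd1 (2.64), which encodes the ectonucleotidase CD39, and Ifitm3 (2.62), all as log2 fold changes. Those that fell most were Ffar2 (-2.40), a receptor for short-chain fatty acids, Cnn3 (-1.87), 4833412C05Rik (-1.85), Fam20a (-1.84), Il17re (-1.80), a receptor chain for IL-17C, Pxdc1 (-1.77), Clstn3 (-1.76), Ccr6 (-1.70), the chemokine receptor of IL-17-producing T cells, Lingo4 (-1.68) and Igfbp4 (-1.68). An NK marker was found in 78.7%, 88.5%, 68.3% and 65.1% of the cells with Gzmb in the 4 libraries and in 34.2%, 78.4%, 34.6% and 45.7% of the others, with the narrowest gap in Csf3r+/+ library 2. A macrophage marker was found in 3.76%, 6.58%, 7.40% and 28.1% of the cells with Gzmb and in 2.03%, 6.32%, 4.55% and 25.4% of the others, and a CD8 marker in 0.431% to 3.23% and 1.12% to 4.72%. The macrophage share was higher with Gzmb in every library and the CD8 share lower, and their part in the differences was not tested. An interaction with genotype called 0 genes by edgeR, with 358 at an unadjusted p under 0.05.

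The lists of pathway genes moved unevenly with Gzmb. Of 10 death ligands and other effectors 6 rose and 1 fell (median log2 fold change 1.34 against -0.0031 over all genes), with Ifng at 2.14, Fasl at 1.93, Ccl4 at 1.73, Ccl5 at 1.57 and Lta at -0.81. Of 11 packing genes only Nkg7 rose (1.36), and none fell. Of 12 exocytosis genes 3 rose, Sytl2 at 1.06, Lyst, the gene mutated in Chediak-Higashi syndrome, at 0.84 and Sytl3 at 0.63. All 4 serpins changed, Serpinb9 (2.04, SE 0.17) and Serpinb6b (1.51, SE 0.13) upward and Serpinb6a (-0.88) and Serpinb1a (-1.64) downward. Of 11 regulators 3 rose, with Tbx21 at 1.55, Bhlhe40 at 0.56 and Stat4 at 0.45. Of 9 receptors 3 rose, with Il12rb2 at 1.98, Il21r at 1.24 and Il2rb at 0.99.

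Gzmk was found in 180 thinned cells, of which 88 were in Csf3r+/+ library 1 and 31, 23 and 38 in the others. These cells held 269721 UMIs, so a gene at 0 there could still be at 11.1 CPM (3 counts over the group). The whole distribution of fold changes was shifted, to a median of -0.29 over 8145 genes (-0.11 with DESeq2's size factors in the same fit), and 353 genes were called (4.33%), 77 higher (0.945%) and 276 lower (3.39%). The split between higher and lower calls is to be read against that shift. The calls also leave out each gene's own spread between libraries, as described below. On counts simulated with the same spread for every gene, this comparison recovered 44.8% of the changed genes.

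Gzma rose most in cells with Gzmk, from 16.1, 38.4, 7.60 and 18.5 CPM to 349, 1270, 1015 and 140 CPM, a log2 fold change of 4.70 (SE 0.27, adjusted p = 8.5e-66, edgeR) that was called without any single library too. Gzmb rose by 1.62 (SE 0.17, adjusted p = 5.2e-18, edgeR), from 865, 1063, 259 and 323 CPM to 3845, 1055, 2408 and 1212 CPM, with no difference in Csf3r+/+ library 2. For both genes the changes differed between libraries by more than these SEs cover. In this comparison edgeR's p-values follow from the log2 fold change over its SE by the normal distribution. For Gzma, Gzmb and the other genes they thus do not measure each gene's own spread between libraries. Gzmc had 1 UMI in the cells with Gzmk, where 21.8 UMIs would be expected at the levels of the other cells of each library, a ratio of 0.0458 (0.00116 to 0.255, exact 95% Poisson interval of that count). This interval takes UMIs as independent and is too narrow, because Gzmc UMIs were concentrated in few cells. Counted in cells, the same pair was 1 against 6.4 expected. It was called lower by edgeR and by DESeq2 (adjusted p = 0.037), but not without Csf3r+/+ library 1 (adjusted p = 0.14). Gzmm (2.43, SE 0.83, adjusted p = 0.070) and Prf1 (1.56, SE 0.83, adjusted p = 0.39) did not pass. The interaction with genotype called 10 genes and no member, with the same limit on its p-values. Gzmb missed narrowly, its rise larger by 1.24 on the log2 scale in Csf3r-/- cells (SE 0.31, adjusted p = 0.0502, edgeR).

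Beside Gzma, the genes that rose most with Gzmk were Mef2c (3.86), Lag3 (3.75), an inhibitory receptor for MHC class II, Rgs16 (3.38), Eomes (3.19), Ccl4 (3.04), Il10ra (2.76), Myb (2.65), Ccl5 (2.53) and Ccl3 (2.50). Ccl5 rose from 3994, 6983, 1622 and 1408 CPM to 35743, 9859, 20426 and 15420 CPM, least in Csf3r+/+ library 2. Several of the rises rest on few UMIs in the cells with Gzmk, with 7 for Myb, 15 for Mef2c and 18 for Il10ra. Rgs16 and Eomes had 1 UMI each there in Csf3r-/- library 1. The sizes of such rises are not firm. The 10 genes that fell most had no UMI in these cells. The UMIs expected from the other cells of each library, weighted by the UMIs of its cells with Gzmk, were set against the limit of 3 counts. That limit covers the counting error of a single gene. It does not allow for the choice of the largest falls, so the bounds that follow are not firm. On this basis Il17re was at least 7.16-fold lower, Qpct at least 6.67-fold, Hmgn3 at least 3.69-fold, Igf1r at least 3.17-fold, Edaradd at least 2.98-fold, Rab4a at least 2.73-fold, Gtf2h1 at least 2.66-fold, a copy of Gbp6 (ENSMUSG00000104713) at least 2.52-fold and Atf3 at least 2.47-fold.

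The pathway lists showed chemokines going both ways with Gzmk. Of 9 death ligands and other effectors 4 rose (Ccl3, Ccl4, Ccl5 and Ifng, the last at 0.90) and 2 fell, Lta at -2.32 and Xcl1 at -1.69. Of 10 packing genes Nkg7 rose (1.47) and Srgn fell (-0.69), and of 12 exocytosis genes none was called (median log2 fold change -0.24). Serpinb1a fell by 2.95 and the other 3 serpins were not called. Of 11 regulators Eomes rose and Id2 fell (-1.06), and of 9 receptors Il2ra (-3.14), Il18r1 (-2.07) and Il2rg (-0.82) fell.

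**Figure D5:**
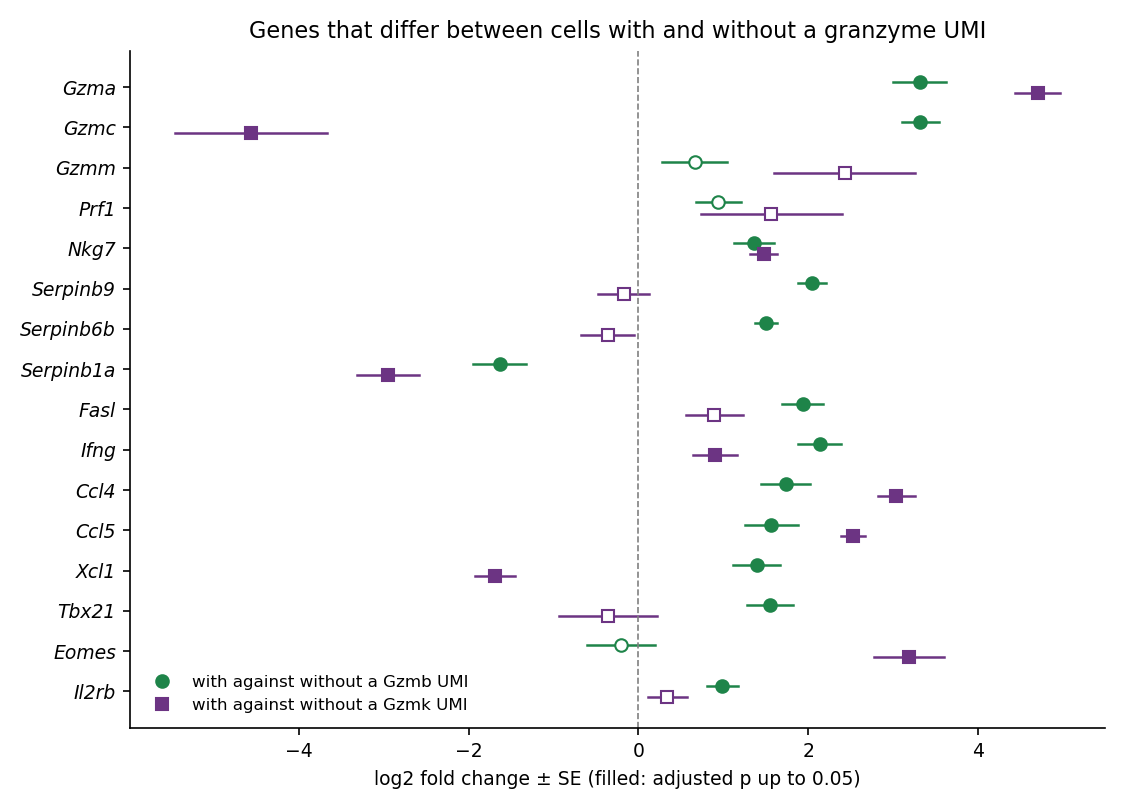
Log2 fold change with its SE between cells with and without a Gzmb UMI (circles) and between cells with and without a Gzmk UMI (squares), for 4 other members and 12 pathway genes, over 4 libraries; filled symbols had an adjusted p of at most 0.05. Gzma was called higher in both comparisons, while Gzmc stood at 3.32 with Gzmb and at -4.56 with Gzmk, the latter from 1 UMI and so with no firm size. For Gzma with Gzmk the changes differed between libraries by more than the SE covers. The SEs with Gzmk do not cover a gene's own spread between libraries.

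Across single cells, the genes whose values followed Gzmb most closely were Ly6c2 (mean Pearson r 0.426 over 4 libraries, 0.280 to 0.528), Klra9 (0.407, 0.374 to 0.457), Nkg7 (0.388), Gimap4 (0.366) and Ccl5 (0.357), among 8185 genes found in at least 1% of the cells of each library. Nearest to Gzma were Gzmb (0.173, 0.158 to 0.192), Ccl5 (0.147), Nkg7 (0.119), Ms4a4b (0.116) and Ly6c2 (0.114). The correlations of Gzma were weak and its counts sparse, and cells of 1 library share depth and background. The other members had too few UMIs in at least 1 library for this comparison.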

How the data were processed

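Single-cell RNA-seq of UTCαβ from 2 Csf3r+/+ and 2 Csf3r-/- sarcomas was used. The authors made the values with Cell Ranger on the mm10 genome, joined both libraries of a genotype and deposited raw UMI counts, without normalization; the 10x 3′ v2 chemistry was used. The submitters' processing notes also name R 3.4.4 and Seurat 2.3.4.

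Counts were split by barcode number and cells kept by the limits given above; cells with many genes were not cut further. No doublet caller was run. Sums per library, or per library and group of cells, were tested with edgeR 4.0.16 under R 4.3.3 (TMM, filterByExpr, quasi-likelihood F test, Benjamini-Hochberg over all genes tested, threshold 0.05). SEs were derived from the F statistics. Shares were read after thinning each cell to 1500 UMIs (seed 42), which left out 1718 shallower cells, 541 and 975 of them in the Csf3r-/- libraries. Python 3.11.15, NumPy 2.4.6, SciPy 1.17.1 and pandas 2.3.3 did the rest. Tested on simulated counts with changes of 2 on the log2 scale, edgeR found 95.5% of those made to differ between genotypes (11552 genes). It found 98.4% between Ly49 and type 3 cells (9605 genes), 97.9% for Gzmb (9282 genes) and 44.8% for Gzmk (8346 genes). DESeq2 1.42.0 found 91.0%, 92.6%, 94.1% and 38.1%. Unchanged genes made up 1.55%, 0%, 2.14% and 6.90% of the edgeR calls. The simulation gave every gene the same spread and changed only genes with enough counts. These shares therefore do not hold for genes that varied more between libraries.

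The members and gene lists were chosen with earlier results of these data known. Named genes are the members, listed pathway genes that passed or show a list, the 10 largest changes in each direction that went the same way in all 4 libraries, and, for members with at least 200 UMIs in every library, the 5 genes of highest correlation. Trac, Trbc1 and Trbc2, listed as T cell markers, were not used. Gene places are those of the GENCODE annotation of GRCm38. Alternatives were DESeq2, its size factors in edgeR, no filter, other gates and depths, no thinning, each library left out and the library number as a block. Between genotypes they also included all barcodes, upper limits on genes per cell, and leaving out cells with UMIs of other lineages as given above. Intervals cover counting error only. A withheld item is not reported here.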

Additional observations from a re-analysis of the deposited data

Results flagged for a closer look

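Members were also found in barcodes outside the comparisons. A set of 209 barcodes had no UMI of a T cell marker and did not meet the rule for macrophage, B cell or fibroblast barcodes. Their summed levels were 3539 CPM of Gzmb, 3436 CPM of Gzmc, 638 CPM of Gzma, 321 CPM of Gzmd, 97.6 CPM of Prf1, 86.8 CPM of Gzme, 31.4 CPM of Gzmf and 17.4 CPM of Gzmm, each above the upper 95% Poisson limit in the macrophage, B cell and fibroblast barcodes. Those limits were 266 CPM for Gzmb, 214 for Gzmc, 105 for Gzma, 3.77 for Gzmd, Gzme and Gzmf, 16.1 for Prf1 and 5.70 for Gzmm. Gzmk had 1 UMI.

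Most came from Csf3r+/+ library 1, in which 92 such barcodes (median 5871 UMIs) held 296 UMIs of Gzmd, against 21 in the 2843 kept cells. Ncr1, which encodes the NK receptor NKp46, was found in 90.2% of those 92 barcodes and in 8.41% of the kept cells of that library, and Klrb1c in 84.8% and 28.0%. The sort had gated on TCRβ. These barcodes entered only the alternative between genotypes that took in all barcodes, along with many others. Their own part in the results was not tested.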

How the results depend on the processing

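Between genotypes, members called (0) became 2 with DESeq2, 1 without the filter, 1 with the replicate block and 0 to 1 when each library was left out; all genes (0) became 626, 303, 300 and 0 to 847 in the same order, and pathway genes (0) 11 with DESeq2, 5 without the filter and 0 to 13 with a library left out. Gzmk ranged from -2.58 to 0.12, the latter without Csf3r+/+ library 1. The 2252 genes between Ly49 and type 3 cells ranged from 1242 to 2510 with a library left out. Within Ly49 cells, the 63 genes became 106 with DESeq2, 276 without the filter, 294 with the block and 0 to 476 with a library left out, where 0 to 3 members were called. Signs turned there without Csf3r+/+ library 1 (Gzmb -0.70 to 0.37, Gzmc -1.76 to 1.17, Gzmk -1.07 to 1.96 over the 4 left-out libraries), without Csf3r-/- library 1 (Gzmk 0.075, Gzmm -0.77 to 1.34, Prf1 -0.17 to 0.44) and with the block (Gzmk 0.33). Within type 3 cells, 0 members and 0 genes became 1 and 270 with DESeq2, 1 and 138 without the filter and 1 and 234 with the block; Prf1 ranged from -0.36 (without Csf3r+/+ library 1) to 1.15, and Gzma from -2.79 to 1.38 (without Csf3r+/+ library 2). The 488 genes with Gzmb became 1023 without the filter, 291 without thinning and 79 to 997 with a library left out (79 without Csf3r-/- library 1). The 353 with Gzmk became 118 with DESeq2, 888 without thinning and 162 to 296 with a library left out. The difference in Gzmb shares, 21.5 points, was 27.4 without thinning and 16.3 at 2500 UMIs. Csf3r+/+ minus Csf3r-/- shares turned for Gzmk (-0.080 points without Csf3r+/+ library 1, up to 2.59) and Gzmm (-0.16 at 2500 UMIs, -0.056 without Csf3r+/+ library 2, -0.045 without Csf3r-/- library 2), and the odds ratio of Gzmb with Gzmm ranged from 0.95 (without Csf3r-/- library 1) to 1.76. Why these values moved was not tested.

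Over 296 alternative log2 fold changes of members, 263 kept direction and side of the threshold, 14 passed it, 9 lost it and 10 turned. Libraries with the same number deviated together (r = 0.29 over 11491 genes), but with 2 pairs and no label of a shared batch the numbers were not taken to pair the animals. Leaving out each library for shares was added after the data were seen. With 2 libraries per genotype, a miss of the threshold does not show that levels were alike, and for Gzmd, Gzme, Gzmf and Gzmk depth limits any statement.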

Other observations

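The requirement for a Cd3e UMI left out 10587 barcodes that had a UMI of another T cell marker, Cd3d or Cd3g, and these also held granzymes. Gzmb had 1233 and 1103 CPM in such barcodes of the Csf3r+/+ libraries and 334 and 402 CPM in those of the Csf3r-/- libraries, again without overlap. Gzmc had 499 and 56.7 CPM against 9.75 and 16.2 CPM. Of the 147 Gzmf UMIs in these barcodes, 144 came from Csf3r+/+ library 1, where 0.161% of 623 barcodes had any, so that most of the Gzmf outside the kept cells lay in a single barcode. No test was run on these values.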
